A study of Mus musculus with 18 samples.

Results

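The nuclear genes of the mitochondrial respiratory chain were examined for H3K4me3, the histone mark found at active and poised promoters, in mouse prospermatogonia. They were taken by symbol from the coding genes on chromosomes 1 to 19 of the RefSeq table: every gene beginning Ndufa, Ndufb, Ndufc, Ndufs, Ndufv, Uqcr, Cox4, Cox5, Cox6, Cox7, Cox8 or Atp5, and the genes Sdha, Sdhb, Sdhc and Sdhd. This gave 93 of 20665 coding genes: 45 of complex I, 4 of complex II, 8 of complex III, 19 of complex IV and 17 of complex V, the ATP synthase. X-linked subunits such as Cox7b lay outside this choice. Prospermatogonia are fetal male germ cells that have stopped dividing, and here they were taken at E17.5 by their Oct4-GFP reporter. The groups were Tet1-/- cells (KO), which lack TET1, an enzyme that oxidises 5-methylcytosine, Tet1HxD/HxD cells (HxD), whose allele is known as catalytically inactive, and Tet1+/+ cells (WT), with 3 H3K4me3 libraries each, described in the labels as biological replicates. The assay was CUT&RUN, where nuclease tethered to an antibody cuts out the chromatin that carries the mark, on 4000 nuclei per library. The series also held 9 IgG libraries, not used here, and the labels name no promoter or Cre driver for either allele.

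The respiratory chain passes electrons from NADH through complex I, or from succinate through complex II, to complex III and then by cytochrome c to complex IV, which reduces oxygen. Complexes I, III and IV pump protons across the inner mitochondrial membrane, and complex V uses the gradient to make ATP. Most subunits are encoded in the nucleus and used in every tissue, but several complex IV subunits have paired isoforms, of which one is general and the other is known from muscle, lung, hypoxic cells or testis.

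For each gene, breadth was the number of bp under a deposited peak within 5 kb on either side of the marked gene end, which is the end with more covered bp within 1 kb over all 9 libraries. A gene was marked in a library when a peak lay within 1 kb of that end. The lists held 69901 to 80232 peaks in KO, 49624 to 67925 in HxD and 83586 to 128701 in WT, covering 50.5 to 73.0 Mb, 45.6 to 69.3 Mb and 76.6 to 109 Mb of the genome in that order of genotypes. Across genes tested, the median breadth per library was 1632, 2058 and 2286 bp in KO, 2073, 1720.5 and 1654 bp in HxD, and 1754, 1778 and 2153 bp in WT, so by this median KO replicate 1 was the narrowest library and KO replicate 3 the broadest. The targeted gene Tet1 had 2732, 3331 and 4851 bp in KO, 3495, 3260 and 2580 bp in HxD, and 2570, 2415 and 3315 bp in WT, but a promoter peak can outlast a deletion in the coding part and does not check the labels. Of 14 prospermatogonial markers 8 were marked in all 9 libraries and Piwil2 in none, and the list summed to 23973 to 38030 bp in KO, 19388 to 29785 bp in HxD and 20684 to 27135 bp in WT. Markers of other cells were also marked: 6 of 8 Sertoli genes in all 9 libraries, summing to 19297 to 27974 bp in KO, 16670 to 26940 bp in HxD and 27476 to 31204 bp in WT. Among 9 Leydig or interstitial genes 3 were marked in all 9 libraries and Star, Cyp17a1 and Hsd3b1 in none, with sums of 10232 to 19662 bp in KO, 13388 to 19478 bp in HxD and 17974 to 25891 bp in WT. Among 8 endothelial or blood genes 4 were marked in all 9 libraries and Ptprc and Gata1 in none, with sums of 5567 to 9267 bp in KO, 6938 to 8612 bp in HxD and 7296 to 10251 bp in WT. H3K4me3 also marks poised promoters, so these peaks do not count cells, and the part of other cells in the results was not tested. In such bulk libraries, fewer marked cells and a narrower mark in each cell cannot be told apart.

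With the lists as deposited, nearly all general subunits carried H3K4me3 in every library. The members that did not were tissue isoforms, genes named as copies and a few other subunits. Marked in all 9 libraries were 78 of 93 members (83.9%), against 61.8% of the 20665 autosomal coding genes, while 11 members were marked in some libraries and 4 in none. With all lists cut to the length of the shortest, 40 members were marked in all 9 (43.0%), against 37.3% of autosomal coding genes. All 7 core subunits of complex I, which carry its cofactors in the matrix arm, and all 8 of its assembly factors were marked throughout. So were 26 of 28 accessory subunits of complex I, 3 of 4 genes of complex II, 6 of 8 of complex III, 12 of 19 of complex IV and 16 of 17 of complex V. Of the 8 tissue isoforms 3 were marked in all 9 libraries, against 75 of the 85 other members.

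The members marked in 7 or 8 libraries lacked one in libraries that differed from gene to gene. Sdha, the flavoprotein of complex II, had 380, 1335 and 1937 bp in KO, 1076, 1588 and 1094 bp in HxD, and 718, 1416 and 0 bp in WT. Uqcrb, a small subunit of complex III, had 1282, 1191 and 1864 bp in KO, 1594, 1336 and 1103 bp in HxD, and 0, 1179 and 1419 bp in WT. Atp5e, the epsilon subunit of the ATP synthase head, had 0, 1180 and 1451 bp in KO, 1219, 1215 and 654 bp in HxD, and 0, 1029 and 865 bp in WT. The empty libraries were KO replicate 1 and WT replicates 1 and 3, and in each of these genes the KO and HxD values spanned those of the marked WT libraries. Uqcr11, another small subunit of complex III, and the complex I accessory genes Ndufa11 and Ndufa13 were each marked in 8 libraries.

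Of the 4 members with no peak at the marked end, Cox5a and Cox7a2, both general subunits of complex IV, were marked at another start. The RefSeq promoter table places the start of Cox5a 3904 bp and that of Cox7a2 4612 bp inside the outer gene end, and both starts had a peak in all 9 libraries. Around its annotated start Cox5a had 2305, 2376 and 2380 bp in KO, 2031, 1974 and 2366 bp in HxD, and 510, 1695 and 1940 bp in WT. Around the annotated start Cox7a2 had 994, 2521 and 2365 bp in KO, 1798, 1502 and 1810 bp in HxD, and 1621, 726 and 2001 bp in WT. Counted at annotated starts where the table gives one, 80 of 93 members were marked in all 9 libraries and 2 in none. Those 2 were Ndufb4b and Ndufb4c, named as copies of the complex I accessory gene Ndufb4. Ndufb4b had 0 bp in all 9 libraries and Ndufb4c had 323 bp in KO replicate 1 and 0 bp in the other 8, while Ndufb4 had 737, 1211 and 1580 bp in KO, 821, 769 and 424 bp in HxD, and 1105, 418 and 716 bp in WT. Reads from near-identical copies can be lost or misplaced in mapping, and the authors' treatment of such reads is not stated in the labels.

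The sequence before each start is shown for Ndufb4b and Ndufb4, since Ndufb4b had no peak and Ndufb4 had one in every library. Both are 300 bases from RefSeq (GRCm38.p6, the same assembly as mm10), read 5′ to 3′, from 250 bases before the start to 50 after it, with each CG dinucleotide in capitals. They lie at chr19:25032858-25033157 (plus strand) and chr16:37654319-37654618 (minus strand), and the longest run they share is 26 bases, from base 275 of Ndufb4b and base 250 of Ndufb4. Ndufb4b has 5 CG dinucleotides and Ndufb4 has 23.
Ndufb4b: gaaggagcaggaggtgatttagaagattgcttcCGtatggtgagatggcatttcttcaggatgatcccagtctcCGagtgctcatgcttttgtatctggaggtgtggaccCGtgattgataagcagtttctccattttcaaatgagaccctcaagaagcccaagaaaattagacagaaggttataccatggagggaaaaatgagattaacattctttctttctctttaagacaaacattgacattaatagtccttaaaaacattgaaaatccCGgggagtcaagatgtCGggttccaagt
Ndufb4: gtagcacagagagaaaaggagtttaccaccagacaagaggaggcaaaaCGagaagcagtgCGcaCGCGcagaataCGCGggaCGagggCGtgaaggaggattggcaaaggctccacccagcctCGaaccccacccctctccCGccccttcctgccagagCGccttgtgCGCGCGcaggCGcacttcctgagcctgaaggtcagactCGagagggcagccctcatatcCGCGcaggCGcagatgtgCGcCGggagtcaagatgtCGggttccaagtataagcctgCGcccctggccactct

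Among members the mark was narrower than at coding genes at large, and breadth differed more within complexes I and V, where it ran from 865 to 4302 bp and from 846 to 4934 bp, than between the medians of the complexes. The mean over 9 libraries had a median of 1747 bp over the 88 members tested, those marked in at least 3 libraries, which put the median member at percentile 41.8 of the 16000 genes tested. Among all autosomal genes tested the median was 1928 bp. The median was 1634 bp for core and 1823 bp for accessory subunits of complex I, 1843 bp for its assembly factors, 1770.1 bp for complex II, 1824 bp for complex III, 1733 bp for the general subunits of complex IV and 1179 bp for its tissue isoforms. In complex V the F1 head had a median of 2045 bp, the c ring 2044 bp and the stalk and membrane part 1686 bp.

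**Figure D1:**
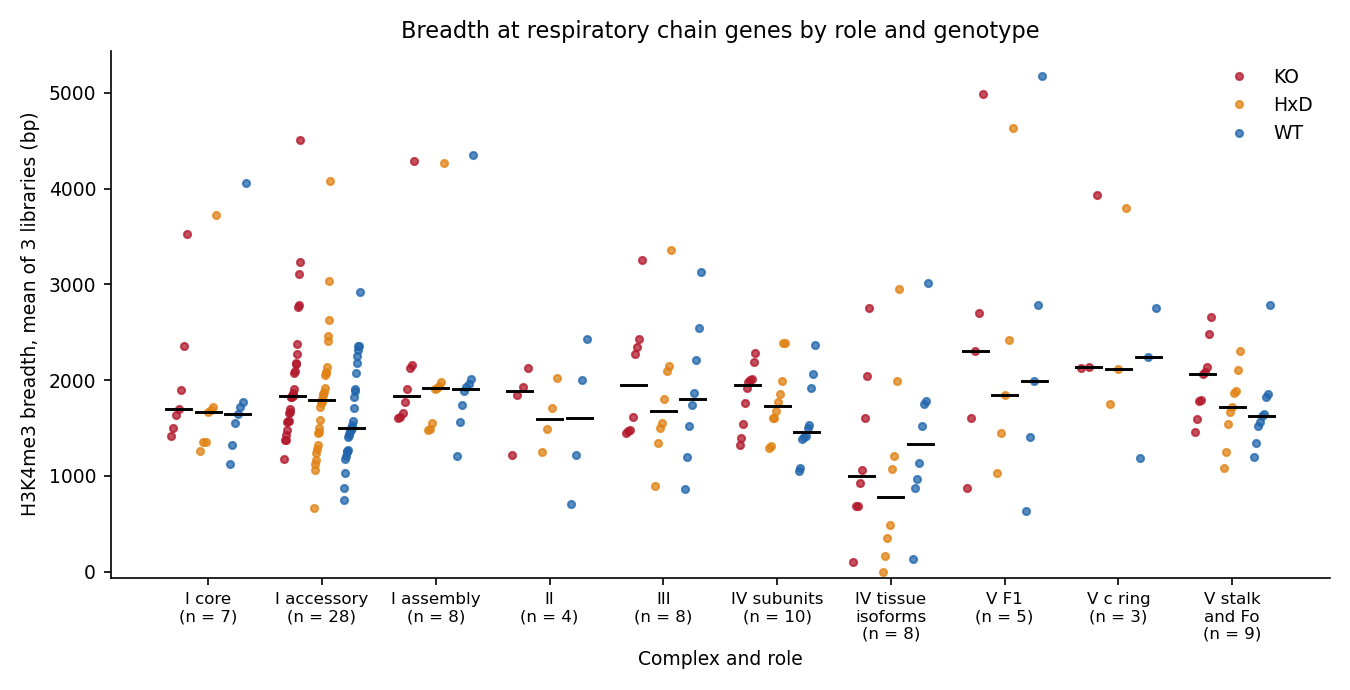
Breadth (vertical axis, bp) of the respiratory chain genes by complex and role, as the mean of the 3 libraries of KO, HxD and WT; each point is 1 gene, marked or not, and each line is the median of the points. Ndufb4b, Ndufb4c and Cox7a2l are not drawn. The tissue isoforms of complex IV hold most of the lowest points, and the highest point of each genotype is Atp5d in the F1 head, at 4992 bp in KO, 4631 bp in HxD and 5180 bp in WT.

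The broadest members described here belonged to complexes I and V. Atp5d, the delta subunit of the ATP synthase head, had a mean of 4934 bp over 9 libraries, and 4063, 5601 and 5313 bp in KO, 5722, 4187 and 3983 bp in HxD, and 4355, 5723 and 5462 bp in WT. Its marked end lay 3577 bp from the annotated start, around which the mean was 4228 bp. Ndufaf3, a complex I assembly factor, averaged 4302 bp, Ndufb10 of the membrane arm 3834 bp, and Atp5g2, which encodes a c ring subunit, 3497 bp. The narrowest members tested were Cox7b2 (683 bp), Cox6a2 (729.9 bp), Cox8c (804 bp), Atp5e (846 bp) and Ndufb4 (865 bp). Within 1 kb of the marked end, 39 members (41.9%) had an end of another coding gene, which can be its start or its far end. The share was 16.8% over all autosomal coding genes, marked or not. Where that end is the start of the neighbour, the peaks of both genes cannot be told apart. Members with such a neighbouring end included Ndufaf3 with Dalrd3, Sdhd with Timm8b, Ndufs6 with Mrpl36 and Atp5j with Gabpa, which encodes a factor known to bind respiratory chain promoters.

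Within complexes I and III, the genes described here differed widely from one another. Ndufv1, which encodes the subunit that takes electrons from NADH, had 1219, 1598 and 1677 bp in KO, 1825, 1810 and 1426 bp in HxD, and 1768, 1703 and 1676 bp in WT. Ndufs1, the largest iron-sulphur subunit of complex I, had 1821, 2399 and 2849 bp in KO, 2207, 2275 and 538 bp in HxD, and 1549, 2173 and 1604 bp in WT. The groups overlapped at both, and HxD replicate 3 held the lowest value of Ndufs1. Among complex III genes, Uqcrh, the hinge protein that meets cytochrome c1, had 2869 to 3739 bp over the 9 libraries, and Uqcrc1, the partner of Uqcrc2 in the core, had 385 to 1678 bp, so their ranges did not meet. Uqcrh and Uqcrc1 had the broadest and the narrowest mean of complex III, at 3247 and 1192 bp over 9 libraries. Uqcrfs1, which encodes the Rieske iron-sulphur protein, had 1247 to 2647 bp, a range that overlapped that of Uqcrc1.

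The 3 c ring genes encode the same mature protein, yet their marks differed in breadth. Atp5g2 had 3354, 4053 and 4392 bp in KO, 3620, 4137 and 3643 bp in HxD, and 2739, 1573 and 3963 bp in WT. Atp5g3 had 1801, 1989 and 2614 bp in KO, 1990, 1496 and 1782 bp in HxD, and 1985, 2443 and 2296 bp in WT. Atp5g2 was broader than Atp5g3 in every library but WT replicate 2, and no other coding gene had an end within 1 kb of any of the 3. In the head, Atp5b, the catalytic beta subunit, had 1289 to 2390 bp over the 9 libraries and Atp5c1, the rotating gamma subunit, 2020 to 3095 bp. An end of Kin lies within 1 kb of the marked end of Atp5c1, while Atp5b has no such neighbour.

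The fold enrichment at the summit is a value the authors' peak caller gave to each peak. For each gene the highest value among peaks within 5 kb of the marked end was read as a percentile. The percentile was taken among the genes tested that had a peak in that window in the same list. The median over 9 libraries lay between percentile 11.8 for Cox7a2l, a factor of supercomplexes, and 88.5 for Uqcrc2, a core protein of complex III, with a median of 53.5 over the 88 members and of 52.2 over all autosomal genes tested. Single genes moved widely between lists. Uqcrc2 ranged between percentiles 2.98 and 97.3, and Sdhc, a membrane anchor of complex II, between 17.4 and 99.5. By complex the median was percentile 57.6 in complex I, 51.3 in II, 55.6 in III, 37.6 in IV and 46.3 in V, so summit heights of complex IV genes stood lowest.

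In 5 of the 8 isoform pairs the tissue isoform was narrower than the general one in at least 8 of 9 libraries, and in 2 pairs it was broader in at least 7. These are descriptions of pairs named by their known tissues, with no test. Cox8b, known from heart and skeletal muscle, had 314, 0 and 0 bp in KO, 0 bp in every HxD library, and 0, 0 and 408 bp in WT. Its general partner Cox8a had 1269, 2506 and 2174 bp in KO, 1925, 1856 and 1775 bp in HxD, and 1544, 2148 and 2069 bp in WT. Cox8b was narrower in all 9 libraries, by a mean of 1838 ± 442 bp (SD over 9 libraries), and had a peak within 1 kb in 1 library.

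Cox8c, known from testis, had 634, 1150 and 1005 bp in KO, 1047, 0 and 0 bp in HxD, and 1710, 597 and 1092 bp in WT. It was narrower than Cox8a in 8 libraries and had no peak in HxD replicates 2 and 3. Cox7b2, another gene known from testis, had 0, 845 and 1214 bp in KO, 438, 295 and 721 bp in HxD, and 460, 1039 and 1133 bp in WT. It was set beside Cox7a2, since its X-linked partner Cox7b lay outside the choice of genes, and was narrower in 8 libraries both at the marked end and at the annotated start of Cox7a2. For comparison, Cox7b itself had 1323, 1688 and 3559 bp in KO, 1614, 2072 and 915 bp in HxD, and 1261, 1123 and 1197 bp in WT.

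Cox4i2, known from lung and from hypoxic cells, had 998, 1053 and 0 bp in KO, 1140, 815 and 1251 bp in HxD, and 1747, 1812 and 1795 bp in WT, against 1979, 1950 and 2911 bp in KO, 2693, 2268 and 2214 bp in HxD, and 2520, 2047 and 2522 bp in WT for Cox4i1. The tissue isoform was narrower in all 9 libraries, and its 3 WT libraries lay close together. Cox6a2, the heart and muscle isoform, averaged 729.9 bp over 9 libraries against 1727 bp for Cox6a1 and was narrower in 8. Striated muscle genes were marked as well: 4 of 8 in all 9 libraries and Tnnt2 and Myh6 in none, with summed breadths of 6061 to 11099 bp in KO, 7352 to 11218 bp in HxD and 11108 to 14226 bp in WT.

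The other pairs went against this order or were split. Cox6b2, known from testis, had 1502, 1992 and 2638 bp in KO, 2110, 1958 and 1893 bp in HxD, and 1530, 1527 and 2187 bp in WT, and Cox6b1 had 1755, 1837 and 1688 bp in KO, 1754, 1696 and 1355 bp in HxD, and 1516, 1342 and 1372 bp in WT. Cox6b2 was the broader one in 8 libraries, by a mean of 336 ± 381 bp (SD over 9 libraries), and the end of Fam71e2 lies within 1 kb of its start. Ndufa4l2, known to be induced in hypoxia, was broader than Ndufa4 in 7 libraries, at 1882, 3201 and 3184 bp in KO, 3596, 817 and 4440 bp in HxD, and 3619, 1527 and 3899 bp in WT, beside an end of Stac3. Cox7a1, the heart and muscle isoform, was broader than Cox7a2 in 5 libraries and narrower in 4 at the marked end, but narrower in 7 at the annotated start of Cox7a2. Both tissue isoforms that were broader had another gene at their end, as did Cox6a2, which was narrower. Of the general isoforms, Cox4i1 had ends of Emc8 and Gm27021 within 1 kb and Ndufa4 an end of Phf14. The part of all these neighbours was not tested.

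**Figure D2:**
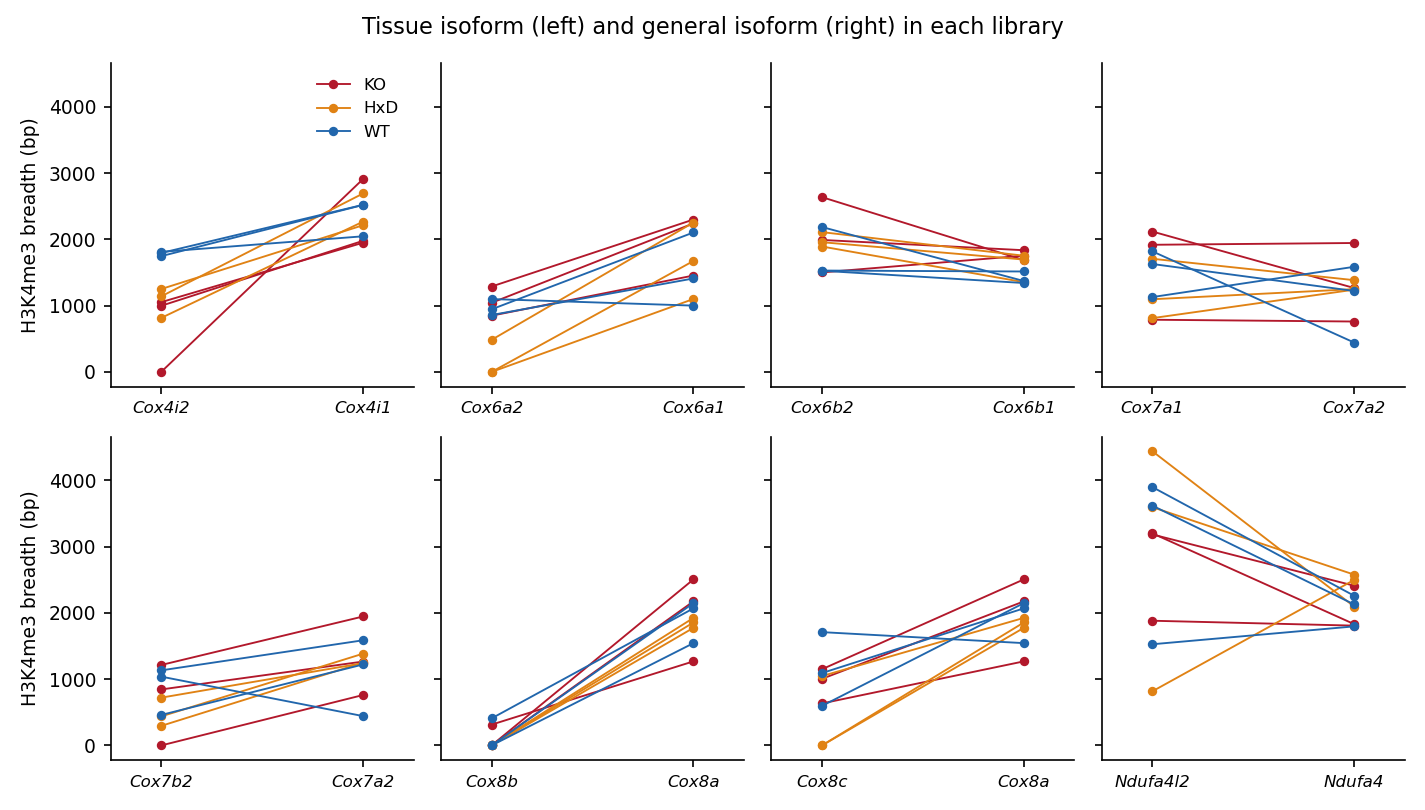
Breadth (vertical axis, bp) of the tissue isoform (left) and the general isoform (right) of each pair; each line joins the values of 1 library, coloured by genotype (KO, HxD, WT). All 9 lines go up to the right for Cox4i2 with Cox4i1 and for Cox8b with Cox8a, and most go down to the right for Cox6b2 with Cox6b1 and Ndufa4l2 with Ndufa4.

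The promoters of one pair of each kind are shown, since Cox8b had the least mark of the tissue isoforms and Cox6b2 was marked in every library. They lie at chr7:140900397-140900696 (minus strand) for Cox8b, chr19:7217567-7217866 (minus strand) for Cox8a, chr7:4753045-4753344 (minus strand) for Cox6b2 and chr7:30626065-30626364 (minus strand) for Cox6b1. They are again RefSeq sequences of 300 bases with each CG in capitals. Cox8b has 2 CG dinucleotides and Cox8a 19, while Cox6b2 has 10 and Cox6b1 17, and neither pair shares a run longer than 7 bases.
Cox8b: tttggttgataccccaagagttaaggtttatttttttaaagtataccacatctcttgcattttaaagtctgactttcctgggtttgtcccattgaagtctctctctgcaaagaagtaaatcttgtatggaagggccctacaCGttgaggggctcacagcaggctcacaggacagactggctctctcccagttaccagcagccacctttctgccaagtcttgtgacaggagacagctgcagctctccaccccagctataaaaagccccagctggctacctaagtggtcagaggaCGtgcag
Cox8a: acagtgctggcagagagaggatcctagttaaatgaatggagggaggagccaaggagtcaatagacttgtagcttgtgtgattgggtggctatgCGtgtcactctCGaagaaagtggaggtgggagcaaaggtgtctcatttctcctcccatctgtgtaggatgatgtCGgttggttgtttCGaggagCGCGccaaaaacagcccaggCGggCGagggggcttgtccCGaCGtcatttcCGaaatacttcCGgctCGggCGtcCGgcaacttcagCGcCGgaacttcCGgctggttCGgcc
Cox6b2: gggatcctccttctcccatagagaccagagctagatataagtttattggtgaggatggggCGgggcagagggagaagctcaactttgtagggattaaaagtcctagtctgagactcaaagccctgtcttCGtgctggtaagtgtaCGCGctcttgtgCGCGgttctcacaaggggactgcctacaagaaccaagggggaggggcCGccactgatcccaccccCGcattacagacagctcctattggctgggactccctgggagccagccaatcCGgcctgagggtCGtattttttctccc
Cox6b1: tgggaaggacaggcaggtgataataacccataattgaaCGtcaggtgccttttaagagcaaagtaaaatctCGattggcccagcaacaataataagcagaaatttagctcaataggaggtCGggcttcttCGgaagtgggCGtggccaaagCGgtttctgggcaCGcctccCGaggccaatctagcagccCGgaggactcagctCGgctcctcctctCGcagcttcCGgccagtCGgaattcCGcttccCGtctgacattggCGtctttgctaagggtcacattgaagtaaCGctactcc

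The promoter table matched 75 of the 93 members. These promoters held a median of 20.0 CG dinucleotides in 300 bases, against 13.0 over the 17492 coding promoters matched and 21.0 over the 10498 with a peak at the start in all 9 libraries. Of 59 members with 15 or more, 54 were marked at the start in all 9 libraries (91.5%), against 94.1% of all coding genes in that class. Of 15 members with 5 to 14, 13 were marked in all 9 (86.7%), against 58.1% of all coding genes. The 1 member below 5 was Cox8b, in a class where 6.20% of coding genes were marked in all 9. Among marked promoters CG content and breadth around the start, the mean of the same 9 libraries, had a Spearman rho of 0.18 over 67 members and of 0.23 over the 10498 genes.

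For 3 of the 5 motifs searched the letters were found in a larger share of members than of coding promoters at large, given here with no test. Both strands were searched for GCGCANGCG, the letters of an NRF1 site, which 28.0% of member promoters held, against 8.87% of all 17492 and 13.4% of those marked in all 9 libraries. The letters CCGGAAG, bound by ETS factors such as GABPA, were in 24.0% of member promoters, against 11.9% of all and 17.8% of the marked ones. The letters AAGATGGC of YY1 were in 13.3%, against 3.21% and 4.31%. For GGGCGG, bound by Sp factors, the shares were 45.3% of members, 46.3% of all and 67.9% of the marked ones, and for TATAAA 10.7%, 13.3% and 6.40%. A share of letters is a description of these windows, it overlaps between motifs, and it says nothing of binding in these cells. Cox8a held 2 CCGGAAG matches, Cox6b1 held 1, Cox6b2 a single GGGCGG and Cox8b a single TATAAA.

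Around annotated starts the peaks reached further downstream than upstream, at members and at coding genes at large. Over 63 members with a finite summit in each library and a marked end within 1 kb of the start, the peaks covered a median of 835 bp upstream and 937 bp downstream of it, against 853 and 1077 bp over 9331 coding genes. The median summit lay 244 bp downstream of the start, against 242 bp. The share of bases under a peak within 200 bp of the start differed more between libraries. Over 71 members other than tissue isoforms it was 81.7%, 97.9% and 98.6% in KO, 93.4%, 92.1% and 86.4% in HxD, and 66.2%, 83.1% and 82.5% in WT. All KO and HxD libraries but KO replicate 1 lay above all WT libraries there, and over the 12729 genes tested with an annotated start the shares were 69.7%, 84.9% and 85.9% in KO, 83.1%, 77.6% and 71.3% in HxD, and 64.1%, 70.1% and 79.2% in WT, with the groups overlapping.

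**Figure D3:**
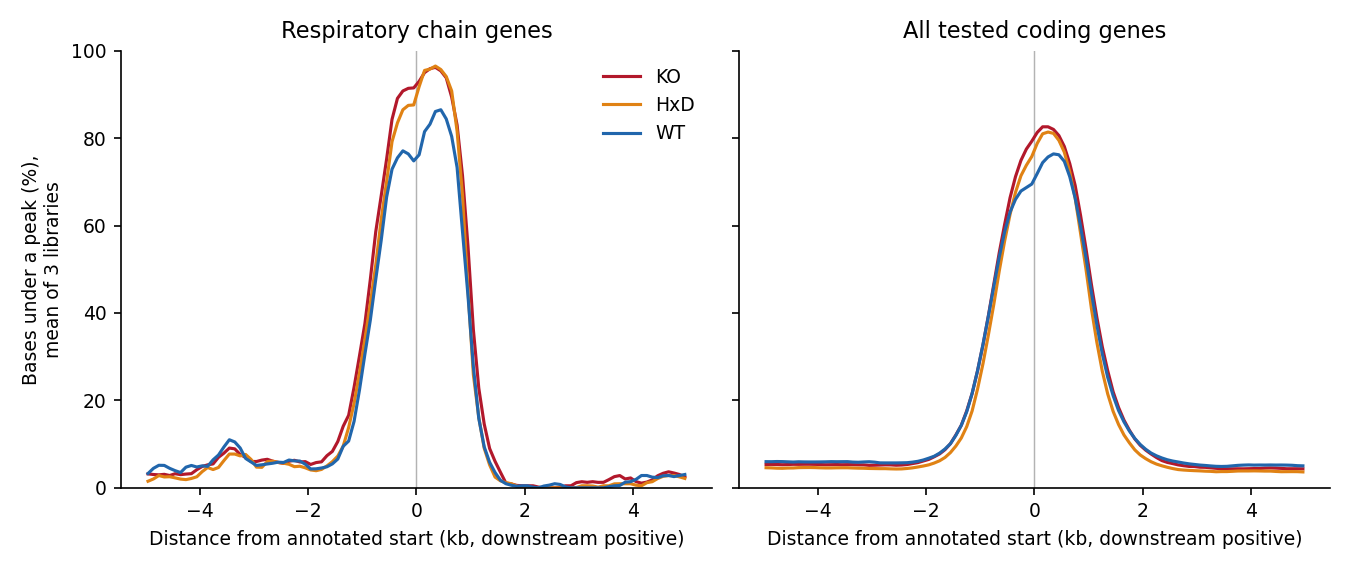
Share of bases under a peak (vertical axis, percent, mean of the 3 libraries of each genotype) by distance from the annotated start (horizontal axis, kb, downstream positive) for respiratory chain genes other than tissue isoforms (left, 71 genes) and for all tested coding genes with an annotated start (right, 12729 genes). Near the start KO and HxD lie above WT in both panels, and at 50 bp downstream the members reach 93.0% in KO, 91.8% in HxD and 76.2% in WT.

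The comparison of KO with WT asked whether loss of TET1 went with a change of H3K4me3 at these genes. No member passed the test (limma, Benjamini-Hochberg over 16000 genes, threshold 0.05), and the smallest adjusted p of a member was 0.146, against 0.00625% of all genes called, which is 1 gene. Breadth was greater in KO at 60 members and smaller at 28, a share of 68.2% greater against 53.3% over all genes tested, and the median difference was +213 bp for members and +45.0 bp for all. At an unadjusted p under 0.05 there were 8 members broader in KO and 1 narrower, against 6.76% and 7.45% of all genes. KO libraries lay wholly above WT libraries at 10 members (11.4%), against 8.49% of all genes, and wholly below them at 2 of 88, against 9.07%. The standard error of a member's difference had a median of 354 bp, so single shifts of that size were not detectable with 3 libraries a group.

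Single libraries moved these values. Without KO replicate 3 the median difference was 16.6 bp, with 44 members broader. Without KO replicate 1 it was 395 bp, with 75 broader and 31 (35.2%) wholly above, where all genes had a median of 232 bp and 23.7% above. Without WT replicate 1 it was 86.6 bp, and without WT replicate 3 it was 308 bp, with 24 (27.3%) wholly above, against 19.8% of all genes. Without KO replicate 2, KO replicate 3 or WT replicate 2, in that order, 4, 5 and 5 members lay wholly below, where 14.9%, 15.6% and 16.1% of all genes did. The member median exceeded the all-gene median by 168 bp with all libraries, and by 105 to 231 bp without any single one.

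**Figure D4:**
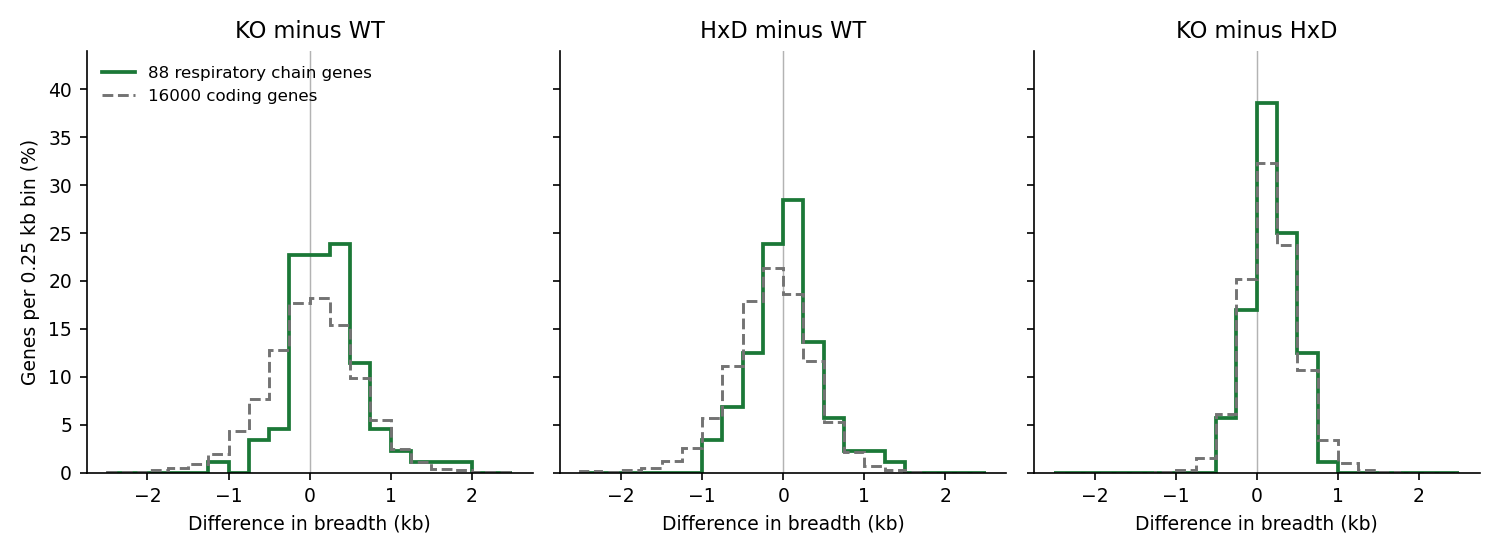
Difference in breadth (horizontal axis, kb) for KO minus WT, HxD minus WT and KO minus HxD; lines give the share of genes in each 0.25 kb bin (vertical axis, percent) for the 88 respiratory chain genes and, dashed, for all 16000 coding genes tested. The members' line lies to the right of the dashed line in both comparisons with WT, with medians of 213 against 45.0 bp and 16.5 against -125 bp, and over it for KO minus HxD.

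The members with KO libraries wholly above WT were led by complex I accessory genes. Ndufa13, a subunit also named GRIM-19 that spans the inner membrane, had 3530, 2667 and 3137 bp in KO, 3104, 2598 and 2190 bp in HxD, and 0, 1170 and 2460 bp in WT. The difference of KO from WT was 1901 ± 517 bp (SE; limma adjusted p = 0.146), the WT libraries were far apart, and the end of Tssk6, a testis kinase gene, lies within 1 kb. Ndufa11, a subunit of the membrane arm, had 2669, 2908 and 2722 bp in KO, 2382, 2435 and 2571 bp in HxD, and 1454, 860 and 2133 bp in WT. Every KO and HxD library lay above every WT library, and KO differed from WT by 1284 ± 357 bp (SE; limma adjusted p = 0.146). An end of Vmac lies within 1 kb of the marked end of Ndufa11.

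In complexes IV and V the same pattern was seen at Cox6c, Atp5j and Atp5l, described here, and at smaller differences at Cox6b1 and Cox7a2l. Atp5j, coupling factor F6 of the peripheral stalk, had 2385, 2393 and 3200 bp in KO, 2302, 2173 and 2449 bp in HxD, and 1576, 1507 and 1780 bp in WT. The difference of KO from WT was 1038 ± 332 bp (SE; limma adjusted p = 0.195), and its window is that of Gabpa, which shares the promoter and so had the same group means. Atp5l, subunit g of the membrane part, had 1933, 1943 and 2534 bp in KO, 1785, 1877 and 1512 bp in HxD, and 1045, 1492 and 1054 bp in WT. Both mutants lay wholly above WT, and KO exceeded WT by 939.7 ± 302 bp (SE; limma adjusted p = 0.195). Cox6c, a general subunit of complex IV, had 1899, 2386 and 2299 bp in KO, 1656, 1804 and 1362 bp in HxD, and 1217, 1345 and 1689 bp in WT, with KO above both other groups (difference from WT 778 ± 298 bp, limma adjusted p = 0.261).

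Members with KO libraries wholly below WT were Cox4i2 and Ndufb5. Cox4i2, with the values given above, differed by -1101 ± 306 bp (SE; limma adjusted p = 0.146), and KO replicate 3 had no peak there. Ndufb5, an accessory gene of the complex I membrane arm that lies beside Mrpl47, had 1847, 1491 and 2160 bp in KO, 2005, 1730 and 1821 bp in HxD, and 2434, 2231 and 2402 bp in WT. The difference was -523 ± 306 bp (SE; limma adjusted p = 0.457), and with lists of equal length it was 278 bp, of the opposite sign.

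The HxD allele, set against the same WT libraries, gave no call either. The smallest adjusted p of a member was 0.248, and 0% of all genes were called. Breadth was greater in HxD at 47 members and smaller at 41, a share of 53.4% greater against 38.9% over all genes, with a median difference of +16.5 bp for members and -125 bp for all. At an unadjusted p under 0.05 there were 3 members broader in HxD and 4 narrower, against 1.75% and 9.04% of all genes. HxD libraries lay wholly above WT at 6 members (6.82%), against 3.62% of all genes, and wholly below at 6 (6.82%), against 13.3%. Leaving out HxD replicate 1 or WT replicate 1 made the median difference -104 bp and -5.17 bp, with 13 and 14 members (14.8% and 15.9%) wholly below, where 27.7% and 22.0% of all genes were. Leaving out HxD replicate 2, HxD replicate 3 or WT replicate 3 made it 91.9, 116 and 165 bp, with 9, 17 and 17 members wholly above (10.2%, 19.3% and 19.3%), where 6.54%, 10.1% and 13.0% of all genes were. Without WT replicate 2 there were 11 above (12.5%) and 10 below (11.4%), against 6.12% and 23.8% of all genes. The member median exceeded the all-gene median by 142 bp with all libraries and by 141 to 218 bp without any single one.

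Each library was also centred on its mean over all genes tested. This moved the all-gene median difference from WT to 9.13 bp in KO and 21.3 bp in HxD. Then 65.9% of members were broader in KO and 72.7% in HxD than in WT, against 50.6% and 51.8% of all genes. With lists cut to equal length, 84.1% of members were broader in KO and 80.7% in HxD, against 68.8% and 61.3% of all genes. Members broader in HxD were the larger share under all of these scalings, but the size of that share moved with the scaling.

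Among members wholly above WT in HxD, Ndufa11 differed by 980.3 ± 357 bp (SE; limma adjusted p = 0.337), Atp5j by 687 ± 332 bp (0.478) and Atp5l by 528 ± 302 bp (0.562). Ndufb10, an accessory subunit of the membrane arm, had 3413, 4781 and 5319 bp in KO, 4920, 3754 and 3565 bp in HxD, and 2682, 2591 and 3477 bp in WT. HxD exceeded WT by 1163 ± 570.2 bp (SE; limma adjusted p = 0.485), and KO overlapped WT through KO replicate 1. Atp5g1, which encodes the proton-carrying c subunit, had 1484, 2157 and 2731 bp in KO, 2162, 2185 and 1995 bp in HxD, and 718, 973 and 1866 bp in WT. The 3 HxD libraries were close together, and HxD exceeded WT by 928 ± 381 bp (SE; limma adjusted p = 0.397).

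Among members wholly below WT in HxD were both Cox4i2, which differed by -716 ± 306 bp (SE; limma adjusted p = 0.420), and the muscle isoform Cox6a2. Cox6a2 had 849, 1043 and 1289 bp in KO, 484, 0 and 0 bp in HxD, and 859, 1100 and 945 bp in WT. KO overlapped WT, HxD lay below both, and the difference of HxD from WT was -807 ± 241 bp (SE; limma adjusted p = 0.248). Atp5h, subunit d of the peripheral stalk, had 1957, 2466 and 3032 bp in KO, 2050, 1831 and 1771 bp in HxD, and 3271, 2369 and 2720 bp in WT. HxD differed from WT there by -903 ± 375 bp (SE; limma adjusted p = 0.405), and an end of Kctd2 lies within 1 kb. Ndufb5 differed by -504 ± 306 bp and Uqcrc2 by -390 ± 316 bp (SE), with limma adjusted p of 0.591 and 0.705. With lists of equal length these 2 differences were 297 and 477 bp, of the opposite sign.

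**Figure D5:**
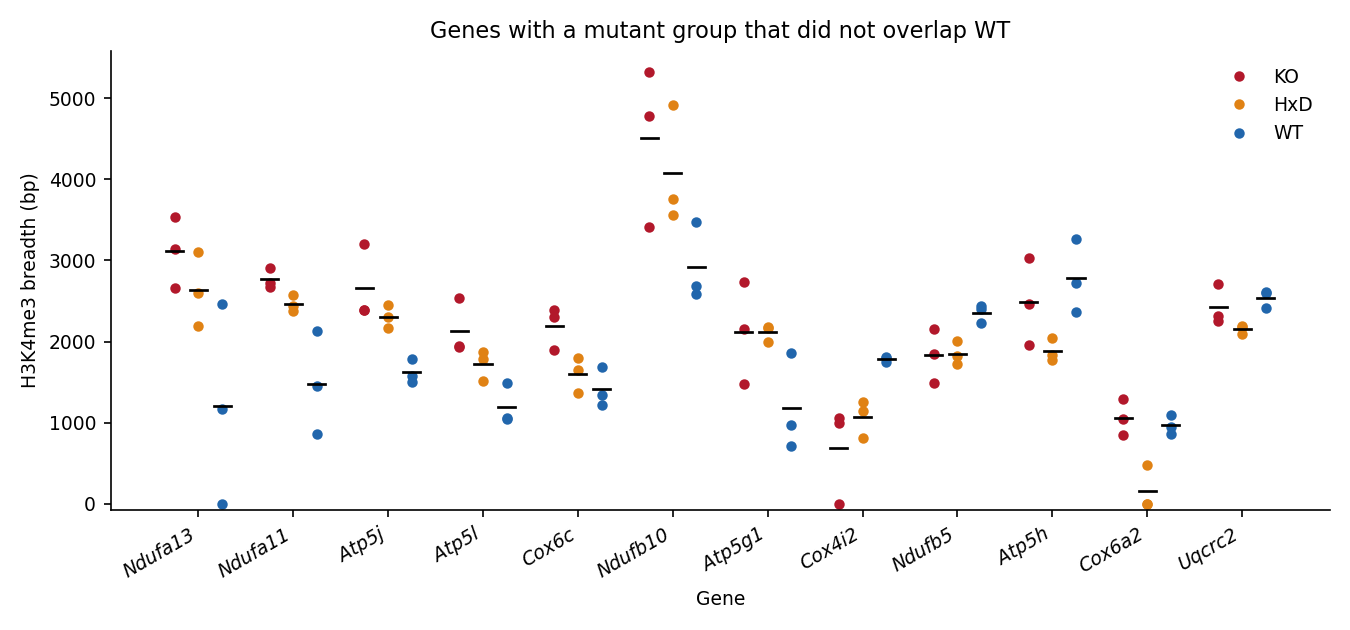
Breadth (vertical axis, bp) in each library for 12 respiratory chain genes named for a KO or HxD group that did not overlap WT; points are libraries, coloured by genotype (KO, HxD, WT), and lines are means of 3. Ndufa11, Atp5j and Atp5l have all KO and HxD points above all WT points, Cox4i2 and Ndufb5 have them below, and Cox6a2 has 2 HxD points at 0 bp.

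Set against HxD, the median shift of KO at members was close to that over all genes. Of 88 members none passed the test, with the smallest adjusted p at 1.00, and 0% of all genes were called. Breadth was greater in KO at 68 members, a share of 77.3% against 71.5% of all genes, with a median difference of 159.7 bp for members and 166 bp for all. KO lay wholly above HxD at 9 members (10.2%), against 7.19% of all genes, and wholly below at 0, against 0.713% of all genes. Cox6a2 had the smallest unadjusted p, 0.00212 by limma, at a difference of 899 ± 241 bp (SE). Without KO replicate 3 the median difference at members was 31.7 bp, without KO replicate 1 it was 346 bp and without HxD replicate 1 it was 269 bp. With each library centred on its mean the direction turned, to a median of -22.5 bp with 45.5% of members broader in KO, against -15.6 bp and 48.1% over all genes.

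By complex, the median difference of KO from WT was 292 bp over 43 members of complex I, of which 31 were broader, 316 bp over 4 of complex II, 93.0 bp over 8 of III, 72.5 bp over 16 of IV and 232 bp over 17 of V. The difference of HxD from WT had medians of 51.3, 143, -85.8, 18.2 and 43.7 bp over the same complexes in that order. In complex II, Sdhc had 2244, 1737 and 1804 bp in KO, 1594, 1451 and 1415 bp in HxD, and 660, 1551 and 1438 bp in WT, with KO wholly above both other groups (difference from WT 712 ± 310.2 bp, SE; limma adjusted p = 0.316). The other 3 genes overlapped between groups. Sdhb, the iron-sulphur subunit, averaged 1848 ± 632 bp in KO, 1710.3 ± 428 bp in HxD and 2431 ± 605 bp in WT, and Sdhd, the other membrane anchor, 2129 ± 432, 2019 ± 356 and 2003 ± 573 bp in the same order (SD, n = 3 each).

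Set within each library, the median member was narrower than the median gene tested in all 9. The member median minus that of all genes was -120, -208 and -41.5 bp in KO, -156, -69.0 and -110 bp in HxD, and -214, -184 and -304 bp in WT. The gap was widest in WT replicate 3, the list with the most peaks, and narrowest in KO replicate 3, with KO replicate 2 inside the WT range. These are descriptions of 9 lists, and the part of list length in them was not tested.

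Respiratory chain genes outside the symbol rule were also marked and gave no call. Cyc1, Cycs and Cyct, which encode cytochrome c1 and the somatic and testis forms of cytochrome c, were marked in all 9 libraries. Cyct averaged 1082 ± 108 bp in KO, 1223 ± 245 bp in HxD and 1156 ± 30.9 bp in WT, and Cycs 1895 ± 343, 2054 ± 244 and 2087 ± 178 bp in the same order (SD, n = 3 each). Of 30 assembly genes 28 were marked in all 9 libraries, 22 were broader and 7 narrower in KO than in WT (median 228 bp), and 15 were broader and 14 narrower in HxD than in WT (median 30.3 bp). Among 13 genes of mitochondrial DNA expression and its regulators 12 were marked throughout, with 8 broader and 5 narrower in each mutant. Yy1 averaged 3762 ± 315 bp in KO, 3384 ± 644 bp in HxD and 1989 ± 429.8 bp in WT (SD, n = 3 each). Nrf1, which encodes a factor known to bind respiratory chain promoters, averaged 2839 ± 364, 2608 ± 458 and 2136 ± 503 bp in the same order. Polrmt, Polg, Esrra and Ppargc1a were narrower in both mutants. In the same order Esrra averaged 4326 ± 911, 4458 ± 274 and 4931 ± 78.3 bp, and Polg 3013 ± 543, 2679 ± 600.4 and 3410 ± 191 bp. Of 5 testis isoforms of energy metabolism 3 were marked in all 9 libraries, with Pgk2 and Ldhc marked in 7 and 8, and 1 was broader and 4 narrower in KO than in WT.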

How the data were processed

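H3K4me3 peak lists of 9 libraries (3 each of KO, HxD and WT) were analysed. The submitters' processing notes name MACS2 2.1.0, Bowtie2 2.5.0, Trim Galore, SAMtools 1.16.1, deepTools 3.5.1 and bedtools 2.27.1, with mm10 as the build; their roles, and the control of the calls, are not given there. The authors deposited 1 narrow peak list for each library, called separately. Each deposited peak carries coordinates, a fold ratio at the summit, and −log10 q, of which the smallest was 2.00 to 2.02. The lists hold no read counts, so depth is unknown, and breadth can move with depth and list length.

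Genes came from the RefSeq table of GRCm38.p6. Covered bp within 5 kb of the marked gene end were compared in 1 limma 3.58.1 fit (R 4.3.3, group means over 9 libraries, eBayes with trend) over 16000 coding genes marked in at least 3 libraries, with Benjamini-Hochberg adjustment and a threshold of 0.05. The fit was tested on simulated data. The p-values measure the spread between these libraries, and the comparisons share samples. Counts by direction and medians have no test. Fold ratios were ranked within a list alone, and −log10 q served to filter and order peaks. Named were genes of the isoform pairs, Sdha to Sdhd, members not marked in all 9 libraries, the 5 broadest and 5 narrowest, and in each mutant up to 5 members in each direction with the largest differences among those not overlapping WT; genes outside this rule, such as Cox7a2l, Ndufv1, Uqcrh, Atp5g3, Yy1 and Nrf1, were chosen after their values were seen. A result that the rule would name is not reported here. Members and lists were chosen with earlier results of these data known. Other computations used Python 3.11.15, numpy 2.4.6, pandas 2.3.3, scipy 1.17.1 and matplotlib 3.10.9.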

Additional observations from a re-analysis of the deposited data

How the results depend on the processing

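Tried were a 2 kb window, peaks of −log10 q of at least 4, lists cut to equal length, no filter on marked genes, libraries centred on their means, annotated starts, the replicate block, and each library left out. For the 17 named differences these gave 272 other values, of which 265 kept their direction and their side of the threshold, 4 passed the threshold and 3 changed sign. The 17 were chosen among members whose groups did not overlap, so leaving out any library could not change their sign. Dropping the filter or adding the replicate block also leaves the difference itself unchanged. In those settings only the side of the threshold could move.

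With centred libraries 2 members passed the threshold for KO against WT, Ndufa11 (limma adjusted p = 0.0413) and Ndufa13 (0.0300), where 464 of all genes passed (2.90%). In KO 14 members (15.9%) lay wholly above and 3 (3.41%) wholly below WT, against 10.7% and 11.9% of all genes. In HxD 17 members (19.3%) lay wholly above and 2 wholly below WT, against 10.0% and 9.97% of all genes. The median difference of KO from HxD became -22.5 bp. With lists of equal length 3 members passed for KO against WT, Ndufa13 (limma adjusted p = 0.0167), Atp5l (0.0245) and Ndufb10, which is 3.41% of members, against 2.59% of all genes. The median differences were 513 bp in KO and 275 bp in HxD, and 71 members were broader in HxD. In KO 14 members (15.9%) lay wholly above WT and 1 (1.14%) wholly below, against 15.4% and 5.22% of all genes. In HxD 12 (13.6%) lay above and 3 (3.41%) below, against 10.5% and 7.20% of all genes. Marked in all 9 libraries were 40 members (43.0%, against 37.3% of autosomal coding genes) and 1 tissue isoform. Ndufb5 changed sign in KO (278 bp) and HxD (297 bp), and Uqcrc2 in HxD (477 bp). The cause of these shifts was not tested.

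Leaving out 1 library gave 0 called members in each comparison. Medians ranged from 16.6 to 395 bp for KO against WT, -104 to 165 bp for HxD against WT and 31.7 to 346 bp for KO against HxD. Broader members ranged from 44 to 75 in KO and 39 to 59 in HxD. Of 88 members, 10 to 31 lay wholly above WT in KO and 6 to 17 in HxD. Wholly below WT lay 2 to 5 in KO and 6 to 14 in HxD. Over all genes the share wholly above WT ranged from 8.49% to 23.7% in KO and from 3.62% to 13.0% in HxD. The all-gene share wholly below ranged from 9.07% to 16.1% in KO and from 13.3% to 27.7% in HxD. Leaving out a library cannot lower a count or share wholly above or below. The lowest of each is therefore that of the full set. The 31 members and the 23.7% of all genes both came without KO replicate 1.

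Equal replicate numbers did not pair the libraries, with correlations of deviations between -0.24 and 0.08. With the replicate block 0 members passed in each comparison, at smallest adjusted p of 0.206 for KO against WT and 0.374 for HxD against WT. Peak lists of unknown depth limit all of this, and a gene without a peak is not shown to lack the mark.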
